A study of Mus musculus with 8 samples.

Results

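The platelet-derived growth factor (PDGF) family comprises 4 ligand genes, *Pdgfa*, *Pdgfb*, *Pdgfc* and *Pdgfd*, and 2 receptor genes, *Pdgfra* and *Pdgfrb*. These 6 genes were taken by name from the 49315 genes of the count files, after mouse Ensembl identifiers had been matched to symbols. All 6 were present and all 6 passed the filter on low counts, among 16887 genes tested. ECs were isolated from whole brains of P9 mice with beads carrying an antibody to CD31, and poly(A)+ RNA was sequenced, with 1 library from each of 4 mutant and 4 wild-type pups. Mutant pups carried *R26GT-Map2k1-GFP/+* and *Tg-Cdh5CreER+/-*, so that tamoxifen at P1 switched on MAP2K1 p.K57N from the *Rosa* locus, in ECs that express *Cdh5*. The mutant cDNA is driven by a CAG promoter and followed by IRES-GFP, and only part of the ECs in a mutant brain carry the recombined allele. Wild-type pups came from the same litters and received tamoxifen too. At P9, the paper reports growth retardation in mutant pups, with vascular malformations and hemorrhage in their brains. The labels call them wild type, while a title among the study's supplements describes a control with *Tg-Cdh5CreER+/-*. Both lines were backcrossed to C57BL/6J.

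PDGF ligands are secreted dimers that bind receptor tyrosine kinases on neighbouring cells. In the brain, ECs and especially endothelial tip cells secrete PDGF-B, and pericytes respond through PDGFRB, which they need to cover new capillaries. PDGFRA binds PDGF-A and PDGF-C and marks oligodendrocyte precursors and fibroblasts, and PDGF-D acts through PDGFRB. Receptor transcripts in an EC preparation can therefore come from cells that were carried over with the ECs.

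Between 24833373 and 34196955 reads were counted on genes in mutant libraries, and between 28146348 and 32208421 in wild-type libraries. Libraries of a group differed from each other by more than sampling noise (chi-square divided by its degrees of freedom ranged from 6.70 to 37.1 among pairs within groups), and each was kept as a replicate. *Map2k1* had 12660 to 18687 normalized counts in mutant and 1502 to 1758 in wild-type libraries, 9.07-fold higher on average. These counts do not separate RNA of the mutant cDNA from that of the endogenous gene. Normalized counts are counts scaled by edgeR's TMM factors to the mean library size. All 10 endothelial markers were tested and none was at 0, and *Cdh5*, the junctional cadherin of ECs, averaged 77899 ± 12549 normalized counts in the mutant libraries (SD, n = 4) against 36155 ± 2561 in the wild-type ones (SD, n = 4). The list did not move as one: 4 of the 10 markers rose, *Cldn5*, a tight junction protein, and *Tek*, the receptor TIE2, fell with log2 fold changes of -0.47 and -0.44, and 4 did not pass, for a median of 0.18.

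Members were tested with edgeR's quasi-likelihood test, at a Benjamini-Hochberg adjusted p below 0.05 across all genes tested. Of the 6 genes, *Pdgfd* and *Pdgfra* were lower in mutant libraries and no member was higher. By the same rule, 44.4% of all genes tested passed, 21.5% higher and 22.9% lower, so 2 called genes among 6 do not stand out from the background. *Pdgfb*, the main ligand by level, did not pass. When the absolute log2 fold change also had to exceed 1, *Pdgfra* alone was called, where 14.0% of all genes were called and 8.05% were called lower. For *Pdgfd* and *Pdgfra*, every mutant value lay below every wild-type value, which held for 21.9% of all genes tested, while 42.5% had separate groups in either direction. The median log2 fold change was -0.09 over the 6 genes and -0.02 over all genes tested.

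**Figure D1:**
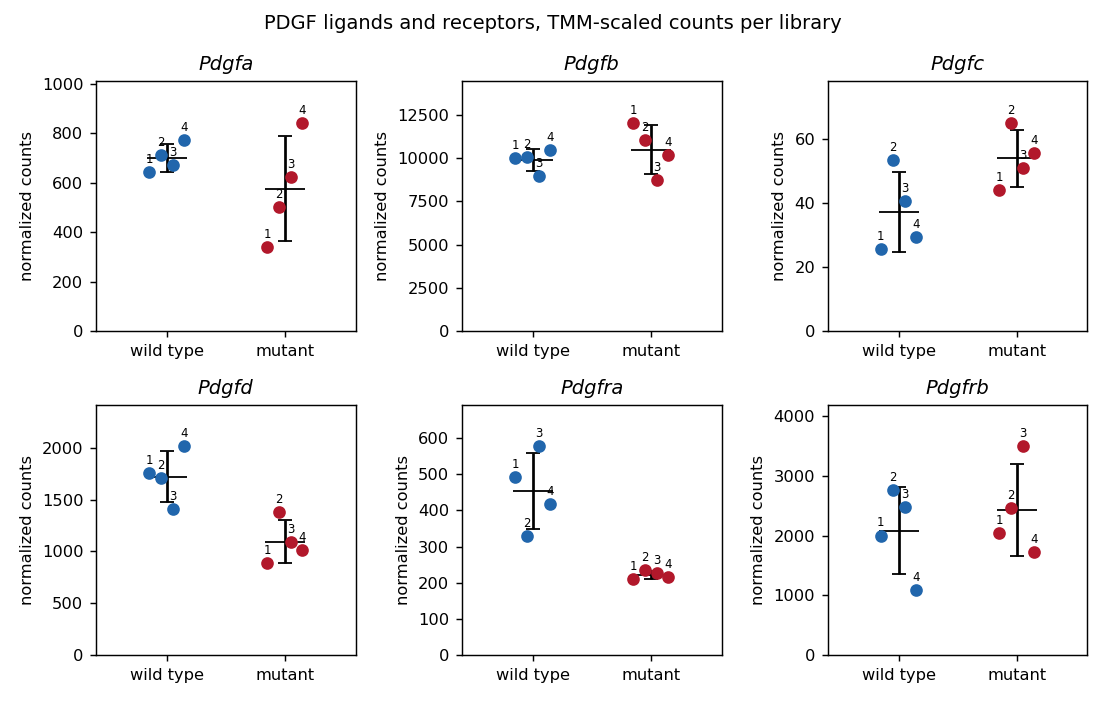
Normalized counts (TMM-scaled, vertical axes from 0) of the 6 PDGF genes in 4 wild-type (blue) and 4 mutant (red) libraries. Numbers are replicates and bars show the mean and SD. Every mutant library lies below every wild-type library for *Pdgfd* and *Pdgfra*, and the groups overlap for the other 4 genes.

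Levels were compared between genes per length, as RPKM, which divides counts by exon length and by TMM-scaled library size. In wild-type libraries, *Pdgfb* was the highest of the 6 at 114 ± 7.30 RPKM (SD, n = 4). It was followed by *Pdgfd* at 18.4 ± 2.65, *Pdgfrb* at 12.8 ± 4.53, *Pdgfa* at 7.58 ± 0.601, *Pdgfra* at 1.53 ± 0.358 and *Pdgfc* at 0.247 ± 0.0828 (SD, n = 4 each). The ranges of *Pdgfd* and *Pdgfrb* overlapped, as did those of *Pdgfrb* and *Pdgfa*, and the other neighbours in this order were separate. In mutant libraries, *Pdgfrb* at 15.0 ± 4.77 RPKM (SD, n = 4) stood above *Pdgfd* at 11.7 ± 2.25 (SD, n = 4), but their ranges overlapped. The rest of the order was the same. In bulk samples like these, fewer cells of a type and less RNA per cell cannot be told apart.

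*Pdgfb* made up most of the ligand RNA. It took 80.1% to 82.1% of the summed RPKM of the 4 ligands in wild-type libraries and 84.3% to 91.2% in mutant libraries. The share of *Pdgfd* was 11.9% to 14.3% in wild-type and 6.21% to 9.95% in mutant libraries. *Pdgfa* took 4.92% to 5.73% and 2.40% to 6.61%, and *Pdgfc* less than either in every library. These shares are a description and were not tested.

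**Figure D2:**
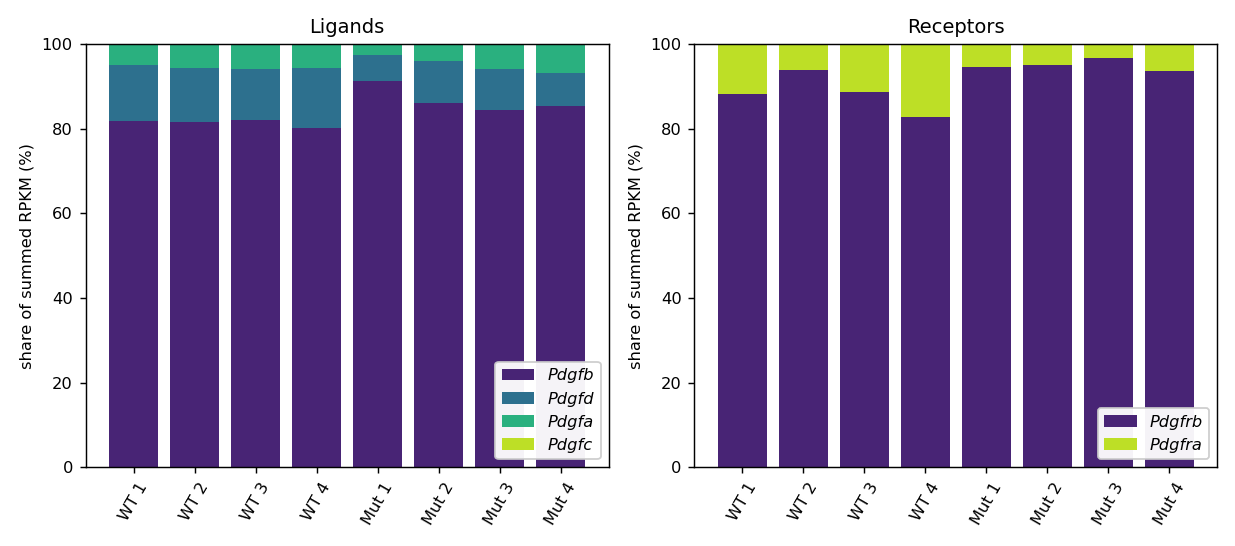
Share of the summed RPKM (%) of the 4 PDGF ligands (left) and of the 2 PDGF receptors (right) in each wild-type (WT) and mutant (Mut) library. *Pdgfb* is at least 80.1% of ligand RNA in every library, and *Pdgfrb* is at least 82.7% of receptor RNA.

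The 2 members that passed the test have promoters that can be shown beside their values. The sequences are the 250 bases before the RefSeq start on GRCm38.p6, 5′ to 3′ on the strand of the gene, which is the plus strand for both. *Pdgfd* lies at chr9:6168236-6168485 and *Pdgfra* at chr5:75152001-75152250.
Pdgfd: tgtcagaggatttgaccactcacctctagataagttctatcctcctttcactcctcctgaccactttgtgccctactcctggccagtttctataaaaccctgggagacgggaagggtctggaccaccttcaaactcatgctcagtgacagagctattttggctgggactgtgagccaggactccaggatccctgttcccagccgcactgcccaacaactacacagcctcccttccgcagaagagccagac
Pdgfra: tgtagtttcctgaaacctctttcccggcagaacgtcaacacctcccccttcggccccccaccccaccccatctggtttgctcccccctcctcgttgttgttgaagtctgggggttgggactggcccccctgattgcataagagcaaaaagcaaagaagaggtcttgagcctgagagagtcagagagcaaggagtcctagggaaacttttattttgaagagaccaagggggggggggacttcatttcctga
Both strands were searched for GCGGGGGCG and GCGTGGGCG (Egr factors), GGGCGG (Sp1), CCGGAAGT (ETS factors) and TGANTCA (AP-1). None of these letters was found in either window, and both are printed in lower case throughout. Among 32851 RefSeq promoter windows of the same length, the shares that hold them were 2.57%, 0.536%, 32.7%, 2.88% and 6.75%. The GC content was 53.6% for *Pdgfd* and 54.4% for *Pdgfra*. Of the other ligands, *Pdgfc* had no match either, and both RefSeq starts of *Pdgfa* had Sp1 letters. No promoter window is given here for *Pdgfb* or *Pdgfrb*.

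*Pdgfb* (ENSMUSG00000000489) (chromosome 15, 79995900 to 80014808 in GRCm38, minus strand) encodes the ligand that ECs use to recruit pericytes. It had 12054, 11057, 8724 and 10159 normalized counts in mutant libraries 1 to 4 and 10009, 10056, 8983 and 10463 in wild-type libraries 1 to 4. Both the highest and the lowest value were those of mutant libraries, and the groups overlapped. Mutant minus wild type was 0.09 on the log2 scale (standard error 0.10, 95% confidence interval -0.14 to 0.31, adjusted p = 0.507, same edgeR test). The interval leaves out a rise or fall of the size seen for *Pdgfd* and *Pdgfra*. *Pdgfb* is also used as a marker of endothelial tip cells. Of 10 other tip cell markers, 6 were higher and 3 lower in mutant libraries, where 21.5% and 22.9% of all genes tested were. Their median log2 fold change was 0.63. Their summed level was 113261 to 147627 normalized counts in mutant and 86377 to 93701 in wild-type libraries. The higher ones included *Angpt2*, an antagonist of the receptor TIE2, with a log2 fold change of 2.03, and *Esm1*, a secreted proteoglycan, with 1.88. The lower ones were *Unc5b* (-0.78), *Apln* (-0.36) and *Dll4* (-0.33). Much of the difference in summed level came from *Nid2*, which averaged 43889 normalized counts in mutant and 18308 in wild-type libraries. Per 1000 counts of the 10 endothelial markers, *Pdgfb* was 21.3 to 22.9 in mutant and 28.0 to 30.6 in wild-type libraries, without overlap. The summed level of that list was itself higher in mutant libraries (409895 to 542658 against 293756 to 357939). Most of its rise came from *Vwf*, with means of 174467 in mutant and 78510 in wild type, and *Cdh5*, with 77899 and 36155. *Cldn5* and *Tek* fell and 4 markers did not pass, so the ratio does not give *Pdgfb* per EC.

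*Pdgfd* (ENSMUSG00000032006) lies on the plus strand of chromosome 9 from 6168584 to 6378850 and encodes a ligand of PDGFRB that is secreted in latent form. Mutant libraries 1 to 4 had 888, 1381, 1094 and 1009 normalized counts, and wild-type libraries 1 to 4 had 1757, 1705, 1412 and 2014. The highest mutant library, replicate 2, lay just below the lowest wild-type library, replicate 3. The mean fell from 1722 ± 247 (SD, n = 4) to 1093 ± 210 (SD, n = 4), which is 63.5% of wild type, or -0.66 on the log2 scale (standard error 0.14, 95% confidence interval -0.97 to -0.34, adjusted p = 0.00385, same edgeR test). The labels carry 3 prefixes, each with libraries of both groups, and what these stand for is not said. Mutant *Pdgfd* was 65.5%, 77.5% and 50.1% of wild type within them. Leaving out single libraries moved its log2 fold change between -0.79 and -0.54, and it passed the test each time. Per 1000 counts of the endothelial markers, *Pdgfd* was 1.64 to 2.83 in mutant and 4.81 to 5.82 in wild-type libraries. The rise of *Vwf* and *Cdh5* in that sum enters this ratio too.

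*Pdgfa* (ENSMUSG00000025856), on the minus strand of chromosome 5 from 138976014 to 138997370, encodes the ligand that drives oligodendrocyte precursors through PDGFRA. It had 338, 503, 621 and 842 normalized counts in mutant libraries 1 to 4, and 644, 713, 670 and 771 in wild-type libraries 1 to 4. The mutant libraries spanned the wild-type range on both sides, with a coefficient of variation of 36.8% against 7.94%. Within the 3 label prefixes, mutant *Pdgfa* was 62.0%, 92.7% and 109% of wild type. The log2 fold change was -0.28 (standard error 0.22, 95% confidence interval -0.76 to 0.21, adjusted p = 0.337, same edgeR test). It was -0.07 without mutant replicate 1 and -0.49 without mutant replicate 4, and *Pdgfa* passed the test in neither case. The antisense gene *6330403L08Rik* overlaps *Pdgfa* and had a mean of 168 normalized counts in mutant and 209 in wild-type libraries. The use of strand in counting is not stated, so reads of the overlap cannot be told apart.

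*Pdgfc* (ENSMUSG00000028019), on the plus strand of chromosome 3 from 81036416 to 81214040, encodes a ligand of PDGFRA that tissue plasminogen activator can release from its latent form. It was near the limit of measurement, with 35, 59, 46 and 64 counts before scaling in mutant libraries 1 to 4 and 28, 57, 47 and 28 in wild-type libraries 1 to 4. After scaling, wild-type replicate 2 lay within the mutant range and the other wild-type libraries below it. The log2 fold change was 0.53 (standard error 0.26, 95% confidence interval -0.06 to 1.12, adjusted p = 0.128, same edgeR test). Without wild-type replicate 2, the log2 fold change was 0.75 and *Pdgfc* passed the test (adjusted p = 0.0488, same edgeR test), so the call rests on this library.

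*Pdgfra* (ENSMUSG00000029231) lies on the plus strand of chromosome 5 from 75152292 to 75198215. It had 211, 234, 225 and 215 normalized counts in mutant libraries 1 to 4, and 492, 328, 577 and 417 in wild-type libraries 1 to 4. The 4 mutant libraries lay close together and all below the lowest wild-type library, replicate 2. The mean fell from 453 ± 106 (SD, n = 4) to 221 ± 10.3 (SD, n = 4), a 2.05-fold decrease, or -1.03 on the log2 scale (standard error 0.16, 95% confidence interval -1.39 to -0.67, adjusted p = 5.86e-04, same edgeR test). Within the 3 label prefixes, mutant *Pdgfra* was 54.3%, 39.1% and 51.7% of wild type. It also passed the test when any single library was left out. The limit of 1 on the log2 scale was not reached without mutant replicate 1 (-0.99), mutant replicate 4 (-0.999), wild-type replicate 1 (-0.98) or wild-type replicate 3 (-0.89).

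Oligodendrocyte precursors are the main *Pdgfra*-expressing cells of the young brain, and their other markers were lower in mutant libraries too. Of 10 such markers, 8 fell, none rose and 2 did not pass, where 22.9% of all genes tested were lower. Their median log2 fold change was -2.52. Their summed level was 479 to 853 normalized counts in mutant and 1440 to 2228 in wild-type libraries, without overlap, and among all 8 libraries a count of 0 was found for *Neu4* in 1 mutant library and for no other marker. *Sox10*, a transcription factor of the lineage, fell to 15.0 ± 4.71 normalized counts (SD, n = 4) from 126 ± 34.9 in wild type (SD, n = 4), with a log2 fold change of -3.08. *Gpr17*, a receptor of differentiating precursors, fell from 583 ± 176 (SD, n = 4) to 75.3 ± 34.6 (SD, n = 4), and *Olig1*, another factor of the lineage, from 268 ± 64.5 (SD, n = 4) to 40.5 ± 15.7 (SD, n = 4). The decrease of *Pdgfra* on the log2 scale was smaller than that of each of the 8 markers, which ran from -3.08 to -1.84. Markers of mature oligodendrocytes, 5 of 5, also fell, with a median log2 fold change of -2.31. The part of these cells in the result for *Pdgfra* was not tested.

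Fibroblasts of the brain's coverings and vessels also express *Pdgfra*. Of 8 fibroblast markers, 3 rose, *Col3a1* fell and 4 did not pass, where 44.4% of all genes tested passed. Their median log2 fold change was 0.39. Their summed level overlapped between the groups, at 33684 to 44400 normalized counts in mutant and 29887 to 40156 in wild-type libraries. *Lum*, a proteoglycan of fibroblasts, rose to 278 ± 9.54 normalized counts (SD, n = 4) from 175 ± 38.7 in wild type (SD, n = 4). *Pdgfra* per 1000 counts of this list was 5.08 to 6.51 in mutant and 8.17 to 16.6 in wild-type libraries, without overlap. Collagen genes made up most of the counts of this list, with *Col1a1* alone averaging 12856 of 34489 in wild type. The ratio is therefore mainly one to collagen RNA. Per 1000 counts of the precursor list, *Pdgfra* was 253 to 471 and 212 to 289, and the groups overlapped. *Vcan* and *Cacng4*, the 2 precursor markers that did not pass, carried most of that sum in mutant libraries. They averaged 421 and 122 normalized counts there, of a summed mean of 733, so this ratio does not follow the markers that fell. After each group's mean was subtracted on the log2 scale, Pearson r with *Pdgfra* over the 8 libraries was positive for all 10 precursor markers (median 0.44) and for 4 of the 8 fibroblast markers (median -0.02), given as a description.

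*Pdgfrb* (ENSMUSG00000024620), on the plus strand of chromosome 18 from 61045150 to 61085061, encodes the receptor by which pericytes sense PDGF-B. It had 2044, 2460, 3497 and 1720 normalized counts in mutant libraries 1 to 4, and 2003, 2763, 2482 and 1088 in wild-type libraries 1 to 4. Replicate 4 was the lowest library in both groups, and the groups overlapped. The log2 fold change was 0.22 (standard error 0.28, 95% confidence interval -0.40 to 0.84, adjusted p = 0.548, same edgeR test). *Pdgfrb* took 93.6% to 96.6% of the summed RPKM of the 2 receptors in mutant libraries and 82.7% to 93.9% in wild-type libraries.

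Pericyte markers were present in every library and varied together with *Pdgfrb*. Of 12 markers, 10 did not pass, where 44.4% of all genes tested passed. *Abcc9* rose with a log2 fold change of 1.78 and *Kcnj8* with 0.81. These 2 genes encode the subunits of a potassium channel that is typical of brain pericytes. The summed level of the list overlapped between the groups, at 23821 to 37525 normalized counts in mutant and 20949 to 38734 in wild-type libraries. After each group's mean was subtracted on the log2 scale, all 12 markers had a positive Pearson r with *Pdgfrb* over the 8 libraries, with a median of 0.90 and a range of 0.41 to 0.99. This is a description of libraries that share their depth and cell make-up. *Pdgfrb* per 1000 counts of the list was 71.7 to 93.2 in mutant and 51.9 to 72.0 in wild-type libraries, and the groups overlapped by a small margin. Of 8 smooth muscle markers, *Tagln* rose with a log2 fold change of 0.73 and 7 did not pass, with summed levels of 6523 to 11868 and 6183 to 11823.

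**Figure D3:**
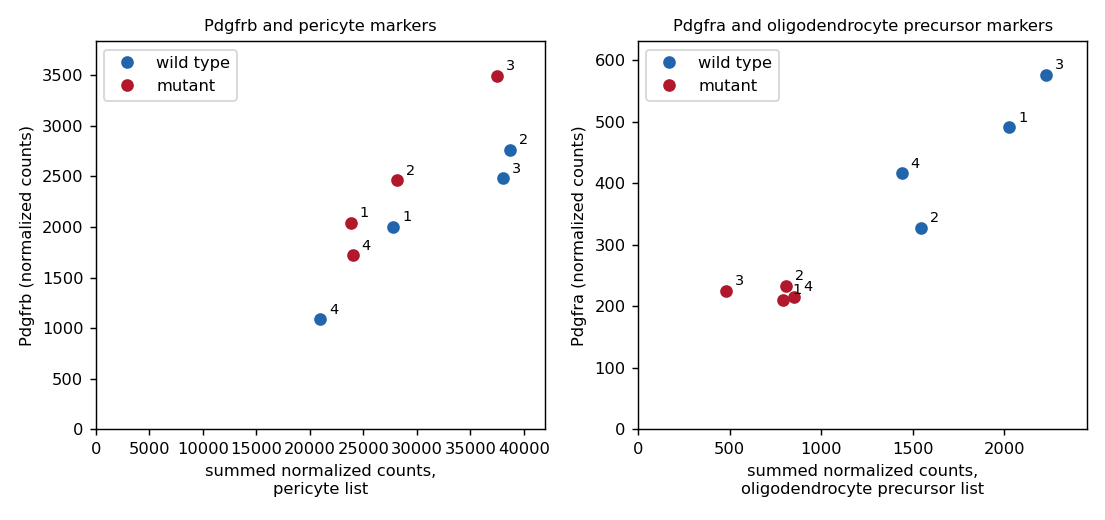
Normalized counts of *Pdgfrb* against the summed normalized counts of 12 pericyte markers (left), and of *Pdgfra* against 10 oligodendrocyte precursor markers (right), 1 point per library (blue wild type, red mutant, numbers are replicates). The groups overlap on the left, with mutant replicate 3 the highest and wild-type replicate 4 the lowest for *Pdgfrb*, and on the right the 4 mutant libraries lie at 211 to 234 on the vertical axis, below all wild-type libraries.

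Other lists give the make-up of the preparations. Their counts stand beside 21.5% of all genes tested that were higher and 22.9% that were lower. Of 8 neuronal markers, *Nefl* rose and 4 fell (median log2 fold change -1.34), and of 6 astrocyte markers, *Gja1* rose and *Aldh1l1* fell (median -0.50). *Gja1* averaged 19413 normalized counts in mutant and 11132 in wild-type libraries, while the highest other astrocyte marker averaged 314 in wild type. Whether its RNA came from astrocytes was not tested. None of 6 microglial markers passed (median -0.04). Of 5 platelet markers tested, *Ppbp* fell (median 0.15), and all 4 red blood cell markers fell (median -1.64). Platelets store PDGF proteins, and their summed marker level was 353 to 562 normalized counts in mutant and 381 to 484 in wild-type libraries.

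**Figure D4:**
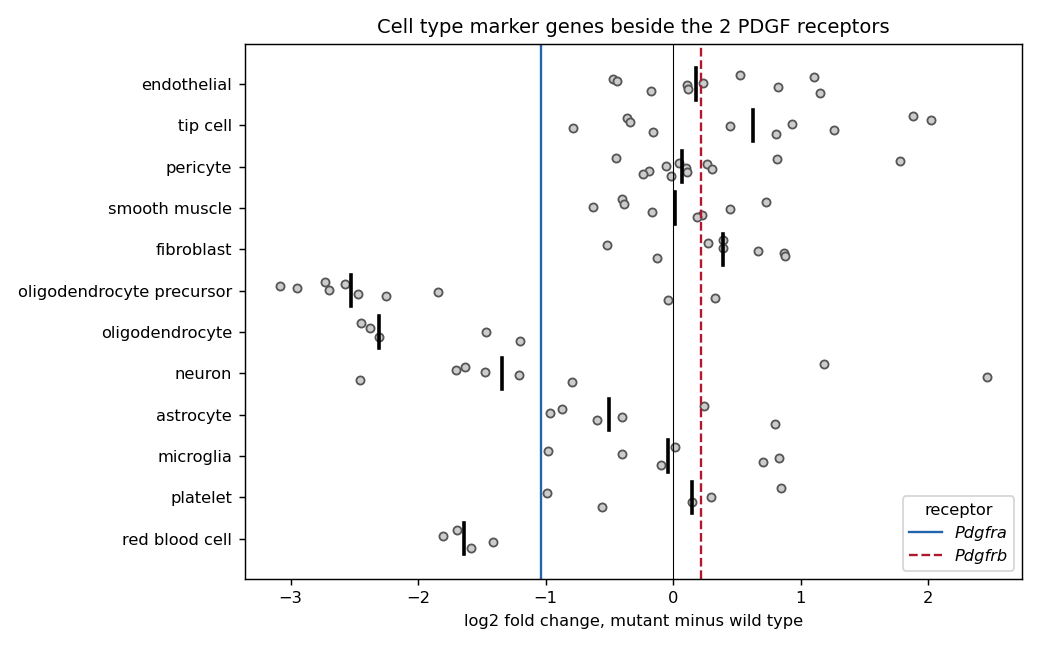
Log2 fold changes (mutant minus wild type, horizontal axis) of the marker genes of 12 cell type lists (grey points, black bars are medians). Vertical lines mark *Pdgfra* (solid, -1.03) and *Pdgfrb* (dashed, 0.22), and the oligodendrocyte lineage and red blood cell lists lie to the left of *Pdgfra*, apart from 2 precursor markers.

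A list of 40 genes that process PDGF ligands, hold them in the matrix or transmit and attenuate the receptor signal was read in the same fit. Among them 21 were higher, 9 lower and 10 did not pass, where 21.5% and 22.9% of all genes tested were higher and lower. The list was chosen with earlier results of these data known, so its counts beside these shares are a description only. The median log2 fold change of the list was 0.24. With the limit of 1 on the log2 scale, 5 were higher and 4 lower, where 5.90% and 8.05% of all genes were called. The count of 4 became 2 without mutant replicate 4, where *Src* (-0.92) and *Slc9a3r1* (-0.94) did not reach the limit, and 3 without mutant replicate 1 or wild-type replicate 1, where *Src* did not. Most of these genes serve other receptors as well.

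All 7 proteases listed as cleaving PDGF ligands passed the test, 5 higher and 2 lower, where 44.4% of all genes tested passed. *Pcsk6*, a proprotein convertase, had 2273, 1496, 1229 and 1369 normalized counts in mutant libraries 1 to 4 and 77.2, 80.6, 103 and 135 in wild-type libraries 1 to 4. It rose 16.1-fold, or 4.01 on the log2 scale (standard error 0.24, adjusted p = 1.84e-06, same edgeR test). *Plau*, the urokinase that activates PDGF-D, rose from 1391 ± 808 (SD, n = 4) to 7619 ± 2062 (SD, n = 4), a 5.48-fold difference (log2 fold change 2.45, adjusted p = 3.34e-04, same edgeR test). *Plat*, the tissue plasminogen activator that cleaves PDGF-C, was far more abundant and rose 1.53-fold, to 39971 ± 3988 (SD, n = 4) against 26183 ± 1118 in wild type (SD, n = 4). *Furin* and *Pcsk7*, convertases of the same family, rose by 0.29 and 0.36 on the log2 scale. *Pcsk5*, another convertase, fell with a log2 fold change of -1.27, and *St14*, the matriptase that also cleaves PDGF-D, fell from 372 ± 34.5 (SD, n = 4) to 155 ± 54.1 (SD, n = 4).

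PDGF-B is held near ECs by heparan sulfate. *Hspg2*, the core protein of perlecan in the basement membrane, rose 2.37-fold to 109121 ± 18224 normalized counts (SD, n = 4), from 46000 ± 3941 in wild type (SD, n = 4). *Ext1*, a polymerase of heparan sulfate chains, rose 2.13-fold, and *Ndst1*, which sulfates these chains, rose 1.29-fold. *Sparc*, a matrix protein that binds PDGF-B, did not pass (log2 fold change 0.06, adjusted p = 0.648, same edgeR test). The co-receptors *Lrp1* and *Nrp1* did not pass either, with log2 fold changes of 0.22 and -0.16.

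Downstream of the receptors, 8 of 18 signal transducers were higher, 6 lower and 4 did not pass. Of all genes tested, 21.5% were higher and 22.9% lower. *Src*, a kinase recruited to active receptors, fell 2.04-fold to 1632 ± 312 normalized counts (SD, n = 4), from 3333 ± 248 in wild type (SD, n = 4), and *Gab1*, a docking protein, fell 1.76-fold. *Nck2*, an adaptor to the actin cytoskeleton, rose 1.64-fold and *Pik3r1*, a regulatory subunit of PI3 kinase, rose 1.58-fold. The adaptors *Grb2* and *Shc1*, which link receptors to RAS, had log2 fold changes of -0.01 and -0.02, did not pass and changed sign under other normalizations. Of 9 attenuators, 5 were higher, 1 lower and 3 did not pass, beside the same shares of all genes tested. *Cblb*, a ubiquitin ligase that removes active receptors, rose 3.27-fold, to 2498 ± 554 (SD, n = 4) against 764 ± 56.2 in wild type (SD, n = 4). The phosphatase *Ptpn1* rose 1.57-fold, and *Slc9a3r1*, a scaffold that binds PDGF receptors, fell 2.11-fold.

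**Figure D5:**
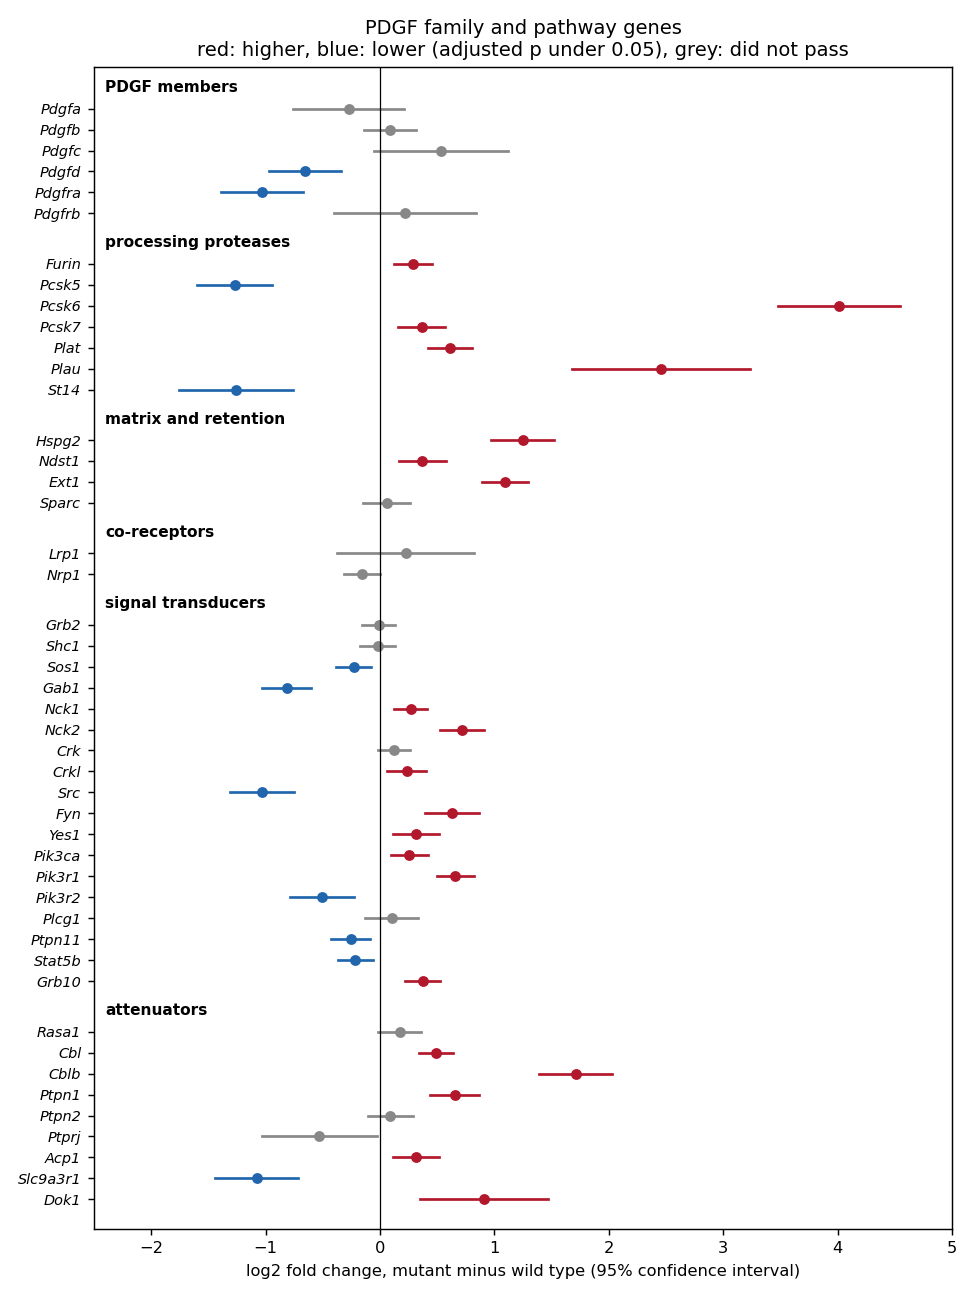
Log2 fold changes with 95% confidence intervals (horizontal axis, mutant minus wild type) of the 6 PDGF genes and 40 pathway genes by role. Red genes were higher and blue genes lower at an adjusted p under 0.05, and grey genes did not pass. *Pcsk6* (4.01), *Plau* (2.45) and *Cblb* (1.71) lie farthest to the right.

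*Pdgfra* and *Pdgfrb* belong to the class III receptor tyrosine kinases with *Kit*, *Csf1r* and *Flt3*. *Kit*, the receptor for stem cell factor, rose 2.92-fold, to 11226 ± 2461 normalized counts (SD, n = 4) from 3838 ± 1017 in wild type (SD, n = 4) (log2 fold change 1.55, adjusted p = 1.93e-04, same edgeR test). *Flt3* rose too, at a low level, from 10.3 ± 3.11 (SD, n = 4) to 35.0 ± 10.6 (SD, n = 4). *Csf1r*, the receptor of microglia and macrophages, did not pass (log2 fold change -0.11, standard error 0.55, adjusted p = 0.883, same edgeR test).

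The genes whose libraries deviated most like those of each member were found by Pearson r over the 8 libraries, on the log2 scale and after subtraction of group means, among the 11396 genes that averaged 100 or more normalized counts. For *Pdgfrb* these were *Gucy1a1* (0.99), *Notch3* (0.99) and *Rgs4* (0.99). For *Pdgfra* they were *Hdgfl3* (0.96), *Zfp770* (0.92) and *Adcy1* (0.91), and for *Pdgfb* *2610507B11Rik* (1.00), *Dck* (0.99) and *Msrb3* (0.99). *Pdgfd* came with *Tmem33* (0.99), *Reck* (0.98) and *Zhx1* (0.98), *Pdgfa* with *Zfp607a* (0.99), *Tbc1d2* (0.98) and *Zc3h8* (0.97), and *Pdgfc* with *Cenpi* (0.93), *Bard1* (0.87) and *Tlcd1* (0.86). These values are the highest of many and only describe these 8 libraries, which share their depth and cell make-up.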

How the data were processed

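Brain EC RNA was sequenced from 8 pups, 4 mutant and 4 wild type, 1 library each. The authors used Trimmomatic for trimming and STAR for mapping to GRCm38, and deposited raw counts per gene for each library. The counting program, the annotation release and the use of strand are not given in the sources used here. They also deposited a normalized signal for 16889 genes, the counts divided by 1 DESeq2 size factor per library. Multiplied back, 100% of these values equalled the counts within 0.001, and the genes of this set served as an alternative, chosen after seeing the data. The labels give DESeq2 and GRCm38. Of 49315 identifiers, 48970 matched a symbol in the reference table of gene names, and gene types came from GENCODE vM21. Gene positions and exon lengths are those of the count files, and promoters those of RefSeq (GRCm38.p6).

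The test was edgeR 4.0.16 in R 4.3.3 (TMM, filterByExpr with a minimum count of 10, glmQLFit and glmQLFTest, no covariate), with p adjusted by Benjamini-Hochberg over all genes tested. Standard errors were derived from the log2 fold change and the F statistic. Alternatives were DESeq2 1.42.0, limma 3.58.1 (voom), other normalizations, filters and thresholds, the replicate number or label prefix as a block, and each library left out. For most of the genes named after their values were seen, these alternatives were added later, as was the count with the limit of 1 on the log2 scale when single libraries were left out. The analysis was tested on simulated data. RPKM used exon lengths of the files. The members and lists were chosen with earlier results of these data known. Genes named were the members, up to 4 passing genes of largest change per list or role, further list genes needed to complete short counts, the related receptors, nearest neighbours and most alike genes. *Plat*, *Furin*, *Pcsk7*, *Sparc*, *Lrp1*, *Nrp1*, *Grb2*, *Shc1*, *Cldn5*, *Tek* and *6330403L08Rik* were named after their values were seen. So were *Vcan*, *Cacng4*, *Unc5b*, *Apln* and *Dll4*, for which the alternatives were not examined. Each library is 1 pup, so p-values measure the spread between pups. With these depths, that spread and not counting limits precision for most members. The exceptions are *Pdgfc* and, at 167 to 248 counts before scaling in mutant libraries, *Pdgfra*.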

Additional observations from a re-analysis of the deposited data

Results flagged for a closer look

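The summed level of the 10 oligodendrocyte precursor markers was 479 normalized counts in mutant replicate 3, apart from the other 3 mutant libraries, which lay between 793 and 853. By Dixon's test for 1 sample apart from the rest, the gap to the nearest of them was 0.841 of the range of the group, past the critical value at the 95% level. In 36 groups of 4 libraries examined, this was the single case. Chance gives about 1 in 20 such groups, so a single case is no more than chance gives. The gap lay in *Vcan*, with 293 normalized counts in this library against 437 to 517 in the other 3, and *Cacng4*, with 55.3 against 86.0 to 201. These are the 2 markers of the list that did not pass the test between mutant and wild type.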

How the results depend on the processing

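*Pdgfd* and *Pdgfra* kept their direction and passed the test under every alternative run, and *Pdgfa*, *Pdgfb* and *Pdgfrb* passed under none. When single libraries were left out, the log2 fold change lay between -0.49 and -0.07 for *Pdgfa*, between 0.04 (without mutant replicate 1) and 0.18 (without mutant replicate 3) for *Pdgfb*, between 0.41 and 0.75 for *Pdgfc* and between -6.0e-04 (without mutant replicate 3) and 0.38 for *Pdgfrb*. The number of members called higher was 0 to 1 over these fits. With the limit of 1 on the log2 scale and all libraries in, 1 member was called lower, and 5 pathway genes higher and 4 lower. With single libraries left out, these counts were 0 to 1, 5 to 6 and 2 to 4. The alternatives were not examined for *Vcan*, *Cacng4*, *Unc5b*, *Apln* and *Dll4*. Among the other genes named beside the members, the sign turned for *Csf1r* (-0.55 to 0.59), *Zc3h8* (-0.115 to 0.12), *Dck* (-0.0395 to 0.12), *Bard1* (-0.22 to 0.14), *Grb2* (-0.0257 to 0.0289) and *Shc1* (-0.0422 to 0.0393) with libraries left out. It also turned for *Dck* (-0.039) and *Sparc* (-0.0059) with upper quartile normalization, for *Dck* with library totals (-0.0315), and for *Grb2* and *Shc1* with RLE normalization (0.0092 and 0.0011) and DESeq2 (0.009 and 0.0008). None of these genes passed the test with all libraries in. *Nrp1* passed with upper quartile normalization (-0.22) and library totals (-0.21). *Kcnj8*, *Tagln*, *Col1a1*, *Dpt*, *Snap25*, *Casp12*, *Cenpi*, *Adcy1* and *Zfp607a* passed with all libraries and not under some alternatives. The cause was not tested. Same-numbered libraries of the groups carry the same label prefix, and wild-type pups were matched to mutant pups within litters, but the labels do not say that a number or prefix marks a litter. The correlation of their deviations was 0.201, 0.210, 0.290 and 0.0241, and the pairing was kept as an alternative. With the replicate block, 8162 genes passed against 7504, and the log2 fold change was -0.66 for *Pdgfd*, -1.01 for *Pdgfra*, 0.56 for *Pdgfc* and 0.25 for *Pdgfrb*, with no call of a member changed. Blocking on label prefix let 8610 genes pass, and no call of a member changed either. *Pdgfc*, at 28 to 64 counts, is the member that depth limits most.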

Other observations

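Both receptor genes have another class III receptor gene as their next tested neighbour. *Kit* begins 377 kb after *Pdgfra* on chromosome 5 and rose with a log2 fold change of 1.55, while *Pdgfra* fell with -1.03. *Chic2*, the neighbour on the other side, rose with 0.51. *Csf1r* begins 20.5 kb after *Pdgfrb*, and neither passed the test, while *Camk2a*, on the other side, fell with -0.75. *Fam20c*, next to *Pdgfa*, fell with -1.71. *Rpl3*, which follows *Pdgfb*, rose with 0.38. *Glrb* and *Ctso*, on either side of *Pdgfc*, fell with -2.12 and -0.77. *Casp12*, 796 kb from *Pdgfd*, fell with -0.46. *Prkar1b*, *Cbx7* and *Dync2h1*, the remaining neighbours, did not pass (adjusted p of 0.131, 0.103 and 0.0657, edgeR's quasi-likelihood test).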
